A study of Mus musculus with 12 samples.

Results

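The p53 target genes described here are 10 mouse genes, Cdkn1a, Ccng1, Mdm2, Bax, Aen, Phlda3, Eda2r, Gdf15, Trp53inp1 and Zmat3, chosen by name as genes known to respond to p53. All 10 were found among the 57180 genes of the table by gene identifier and symbol. The study measured RNA in 12 libraries of 4 groups with 3 libraries each: liver of C57 mice given vehicle or CCl4 (carbon tetrachloride, a hepatotoxic solvent), and CX3CR1+ cells of dorsal skin from vehicle- or CCl4-treated mice of the Cx3cr1-creER:Ai9 strain. In that strain a tamoxifen-dependent Cre under Cx3cr1 control switches on a red reporter, so the skin cells of both groups share these alleles. Liver was sequenced as bulk poly(A) RNA and the skin cells by smart-seq, which amplifies whole cDNAs from few cells; the labels give all 12 the bulk library protocol. The design text speaks of hepatocytes and the sample labels of liver; the sources used here do not state dose, time after CCl4, age, sex or how many skin cells were taken. Values are TPM, a measure of transcript abundance in which each gene's signal is divided by transcript length and every library is scaled to the same total.

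p53, encoded by Trp53, is a transcription factor that is kept low by the ubiquitin ligase MDM2 and stabilised after DNA damage and other stress. It then raises transcription of genes that halt the cell cycle, favour apoptosis or repair, and of Mdm2 itself, which closes a feedback loop. CCl4 is converted by hepatocyte cytochromes into radicals that damage membranes and macromolecules, and surviving hepatocytes re-enter the cell cycle, so arrest and proliferation genes are both studied in this injury.

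p53 binds pairs of a consensus decamer, and this decamer was looked for in promoter windows from 250 bases before to 50 bases after RefSeq transcription starts (GRCm38.p6, another build than the GRCm39 of the table, so these windows serve only to show sequence). Among all 32851 windows, 8.36% held an exact decamer on either strand (the motif reads alike on both), and 2.71% held a pair with at most 1 mismatch in each decamer and at most 13 bases between them. Of the 10 genes, 8 had a window, 11 windows in all, of which 6 held an exact decamer: 1 each of Cdkn1a, Mdm2, Ccng1 and Bax and 2 overlapping ones of Aen. Pairs were present in 2 of the 11, those of Cdkn1a and Ccng1. The stretches below, all upstream of the start and written 5′ to 3′ on the gene's strand, are shown because they belong to the arrest genes, the feedback gene and a death gene described below. Capitals mark exact decamers and, in the pairs of Cdkn1a and Ccng1, also the partner with a mismatch.
Cdkn1a, chr17:29090866-29090978, plus strand: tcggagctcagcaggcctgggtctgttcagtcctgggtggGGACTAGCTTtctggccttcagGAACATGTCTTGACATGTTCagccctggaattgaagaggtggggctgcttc
Mdm2, chr10:117710895-117710984, minus strand: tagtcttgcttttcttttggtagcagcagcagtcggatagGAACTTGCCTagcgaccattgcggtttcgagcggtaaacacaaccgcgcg
Ccng1, chr11:40755422-40755521, minus strand: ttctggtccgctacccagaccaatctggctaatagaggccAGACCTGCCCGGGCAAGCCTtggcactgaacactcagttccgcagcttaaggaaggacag
Bax, chr7:45467050-45467139, minus strand: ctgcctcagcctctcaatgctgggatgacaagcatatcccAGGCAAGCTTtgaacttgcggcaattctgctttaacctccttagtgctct
A match is a description of these letters and not a measured binding site. Counted to the RefSeq start that each window belongs to, the first decamer in capitals lay 73 bases upstream in Cdkn1a, 186 in Mdm2, 195 in Ccng1 and 201 in Bax. The windows of Gdf15, Phlda3 and Eda2r held no match.

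What the libraries hold sets how the liver values can be read. Transcripts of the mitochondrial genome, counted with 11 nuclear pseudogenes nearly identical to them, took 25.7% to 28.4% of the TPM in vehicle liver and 68.1% to 82.1% after CCl4, so all other genes shared 17.9%, 19.8% and 31.9% of the total in CCl4 libraries 1, 2 and 3. The median log2 change of all genes tested was therefore -0.59 in TPM as deposited, 0.90 when TPM was rescaled without mitochondrial genes and near copies, -0.10 under median-ratio scaling and -0.15 under quantile normalization. Each liver result is given on the deposited scale and with what the other 3 scalings show. The marker sums that follow are on the deposited scale only and were not rescaled. Hepatocyte markers held a summed 63673 to 70866 TPM with vehicle and 12627 to 30018 with CCl4, with all 7 lower in every CCl4 library. Genes other than mitochondrial ones and near copies shared 71.6% to 74.3% of the total with vehicle, far more than with CCl4. Markers of other cells were higher: all 6 of liver endothelial cells (18.1 to 22.3 against 112 to 343 TPM), all 7 of stellate cells and fibroblasts (7.52 to 9.76 against 78.4 to 183.7), 8 of 9 of monocytes and macrophages without overlap (17.2 to 32.5 against 115 to 440.0) and 4 of 5 of neutrophils without overlap (0 to 0.65 against 31.6 to 342.6). Fewer cells of a type and less RNA per cell cannot be told apart in bulk liver. The hepatocyte sums were 12627, 14711 and 30018 TPM in CCl4 libraries 1, 2 and 3. Genes other than mitochondrial ones and near copies shared 17.9%, 19.8% and 31.9% of the total there. How much of the fall of the hepatocyte sum goes with the larger mitochondrial share was not tested. The part of cell makeup in the results below was not tested.

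The skin libraries were unlike each other. Genes above 0 TPM numbered 28870 in vehicle library 1 and 28357 in CCl4 library 1, against 21328 to 23494 in the other skin libraries. What sets the libraries numbered 1 apart was not tested. Vehicle library 3 was at least 3-fold below both other vehicle libraries in 25.4% of 9497 genes with a mean TPM of at least 5, against 1.51% and 2.72% for the other two, and CCl4 library 3 in 12.03% of 9049 genes. The 9 monocyte and macrophage markers summed to 8199 to 18307 TPM with vehicle, to 6179 and 7405 in CCl4 libraries 1 and 2, and to 298 in CCl4 library 3. That library also held the highest sum of 5 neutrophil markers, 579.8 TPM against 8.52 to 85.8 in the other 5. Nearly all of that sum was S100a8 at 291.42 and S100a9 at 288.08 TPM. The other neutrophil markers, Ly6g, Retnlg and Mpo, were at 0, 0.08 and 0.20 TPM there, so the sum does not show neutrophils. Cx3cr1 itself was at 3.91, 0.27 and 0.91 TPM in vehicle libraries, against 5.28, 0 and 0.28 TPM with CCl4, below the T cell receptor component Cd3e at 100.2 to 553.8 TPM and the keratin Krt14 at 264 to 1133 TPM. The transcript of the gene that names these cells was thus under 1 TPM in 4 of 6 libraries, and they are called skin CX3CR1+ cells only as the labels name them. Csf1r, which marks macrophages, was at 44.5 to 483.4 TPM with vehicle and 2.12 to 59.6 TPM with CCl4. The part of cell makeup in the skin results was not tested.

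In liver after CCl4, 1 of the 10 genes rose by the test and 0 fell, while 2 stood clear of vehicle from near 0 at levels too low to be tested. Mdm2 rose 1.65-fold in mean TPM. Phlda3 and Eda2r, both near 0 with vehicle, were 23.8-fold and 11.3-fold higher in mean TPM, and Cdkn1a, at 0.643 of its vehicle mean, missed the threshold for a fall. Of the 7 genes that passed the filter on low TPM (at least 1 TPM in at least 3 of the 6 libraries), the limma test with a Benjamini-Hochberg adjusted p under 0.05 over all genes called 1 higher and 0 lower. The same test called 10.3% of all 10385 genes higher and 51.1% lower, 61.4% in all. At an unadjusted p under 0.05 it had Mdm2 among 10.9% of genes higher and Cdkn1a among 55.1% lower. Of the 7 genes tested, CCl4 libraries lay wholly above vehicle for 1 (Mdm2), against 11.4% of all genes tested, and wholly below for 1 (Cdkn1a), against 58.8%. With Phlda3 and Eda2r, which were under the filter, 3 of the 10 lay wholly above. No share of all genes under the filter was computed to set beside these 2. The median change of the 10 genes was 0.28, and of the 7 tested -0.12, beside -0.59 for all genes tested. Relative to that median, 9 of the 10 genes lay above it, by 0.19 to 1.49, and Cdkn1a lay at -0.054. The 9 include the 3 genes under the filter, which that median leaves out.

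**Figure D1:**
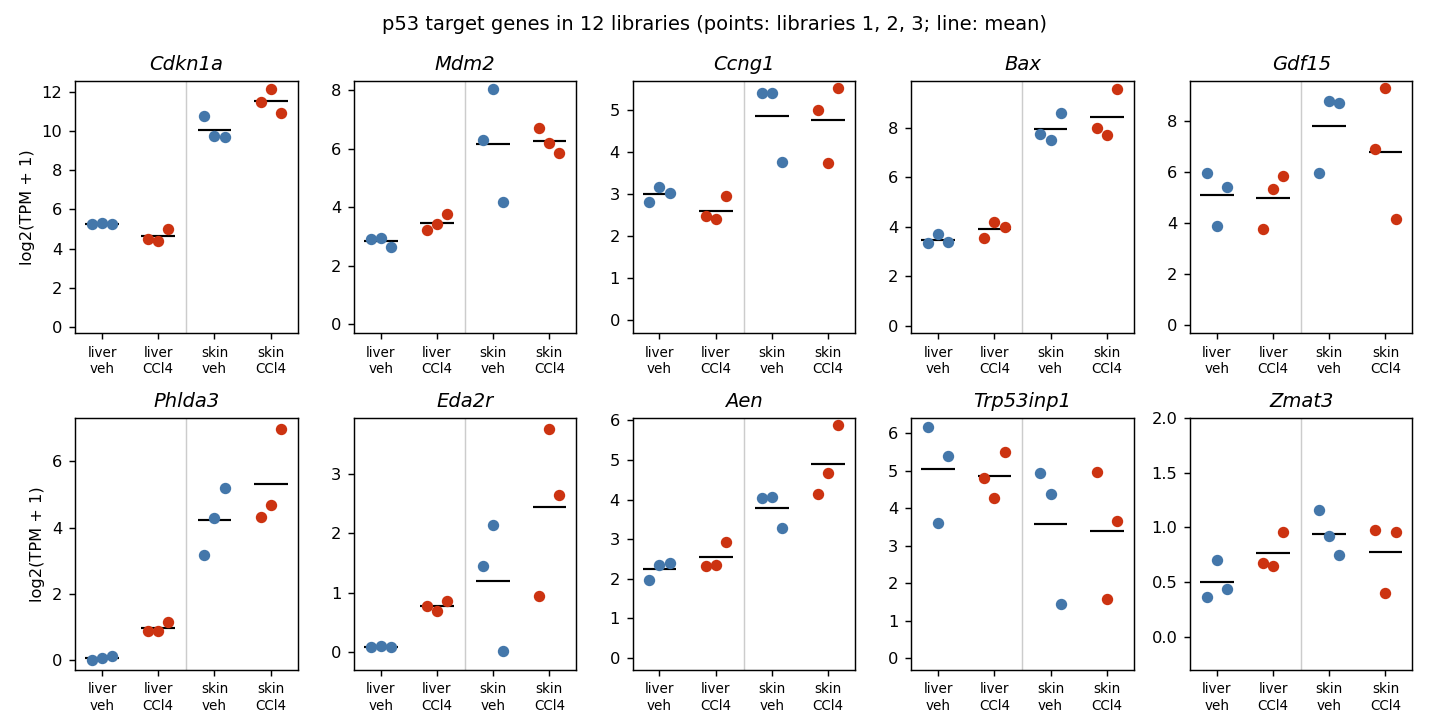
Level of each of the 10 genes as log2(TPM + 1) in every library, with 1 panel per gene, blue points for vehicle and red for CCl4, in liver (left) and skin CX3CR1+ cells (right), and a line at the mean of 3 libraries. In liver, Mdm2, Phlda3 and Eda2r lie higher with CCl4 and Cdkn1a lower without overlap; in skin, Cdkn1a and Aen do not overlap.

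The count of genes called depended on the scale. Rescaled without mitochondrial genes and near copies, 9 of the 10 were called higher, but so were 67.8% of all genes (3.58% were lower). Among the 9, Phlda3, Eda2r and Zmat3 were under 1 TPM in every vehicle liver. They were tested only through the group where they were high and could not have been called lower. On that scale CCl4 libraries lay wholly above vehicle for 8 of the 10 genes, against 72.8% of all genes, and wholly below for 0, against 5.15%. Under median-ratio scaling 4 of 8 tested were called higher (Mdm2, Bax, Phlda3 and Aen), against 18.4% of all genes, and under quantile normalization 3 of 7 (Mdm2, Bax and Aen), against 17.1%. Phlda3 likewise passed the filter under median-ratio scaling only through the CCl4 livers. No gene of the 10 was called lower under any of the 4 scalings, where 25.9% of all genes were under median-ratio scaling and 24.8% under quantile normalization.

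**Figure D2:**
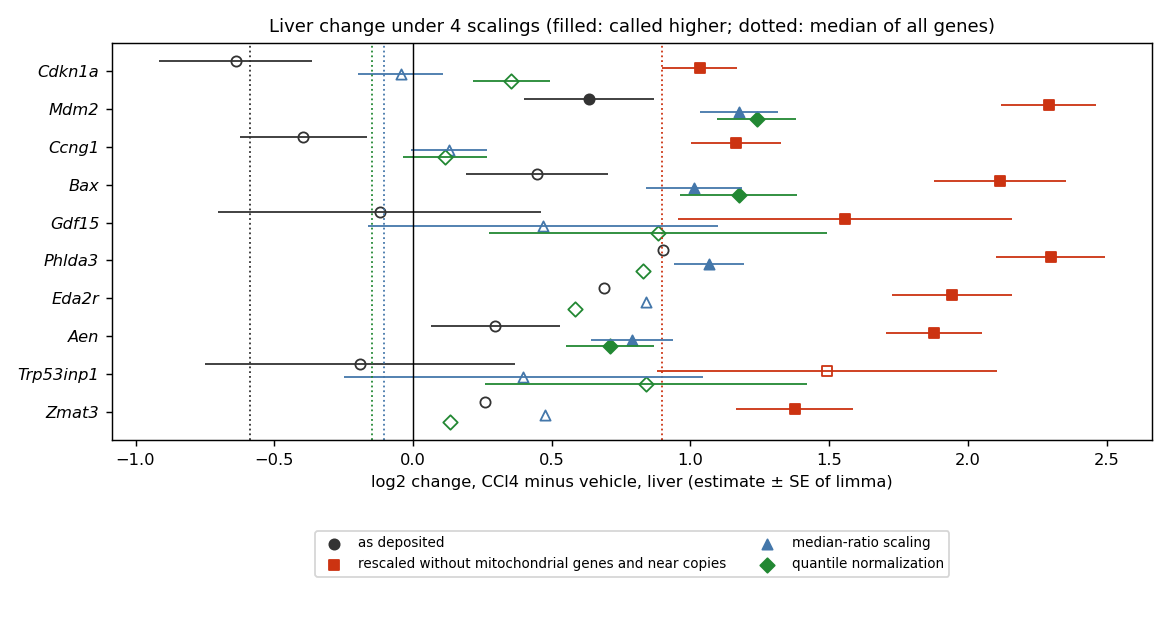
Log2 change of the 10 genes in liver, CCl4 minus vehicle, with limma's SE where the gene was tested, on 4 scales marked by colour and shape. Filled symbols were called higher, and dotted lines mark the median of all genes on each scale, from -0.59 as deposited to 0.90 without mitochondrial genes; Mdm2 is filled on all 4.

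Among the cell cycle genes, Cdkn1a encodes p21, which inhibits cyclin-dependent kinases. It was at 37.34, 38.73 and 36.70 TPM in the vehicle livers and at 21.65, 20.14 and 30.72 TPM in the CCl4 livers. The vehicle values were within 1.06-fold of each other, and all CCl4 values lay below them, with library 3 the highest. The change of -0.64 ± 0.27 (log2 ± SE, n = 3 per group) missed the threshold (limma adjusted p = 0.0617). It passed without CCl4 library 3 at -0.82 (limma adjusted p = 0.00105). Rescaled without mitochondrial genes the direction turned: 49.4 to 52.3 TPM with vehicle and 96.3 to 120.9 with CCl4, a change of 1.03 ± 0.13 (limma adjusted p = 0.00102). That change lay 0.14 above the median of all genes on the same scale. The estimate was -0.044 under median-ratio scaling and 0.35 under quantile normalization, neither called. Among all genes tested 46.6% had a lower change than Cdkn1a, so its place was near the middle.

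Ccng1 encodes cyclin G1, a regulator that recruits a phosphatase to MDM2. It stood at 6.07, 7.97 and 7.16 TPM in vehicle libraries, against 4.58, 4.28 and 6.72 TPM with CCl4, where library 3 overlapped vehicle. The change of -0.40 ± 0.23 was not called (limma adjusted p = 0.148). Without CCl4 library 3 it was called lower at -0.56 (limma adjusted p = 0.0145), and its sign was positive on the other 3 scales, at 1.16, 0.13 and 0.11, called only without mitochondrial genes.

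Mdm2, the feedback inhibitor, was the gene that rose. Its levels were 6.51, 6.77 and 5.17 TPM with vehicle and 8.27, 9.74 and 12.50 TPM with CCl4. No CCl4 library reached down to vehicle. The change was 0.63 ± 0.23 (log2 ± SE, n = 3 per group, limma adjusted p = 0.0346), and 89.8% of all genes had a lower one. It was called on all 3 other scales, at 2.29, 1.17 and 1.24. The call was lost without vehicle library 1, 2 or 3 (limma adjusted p = 0.0917, 0.0793 and 0.209), when low genes were kept in the test (0.0591) and in a fit over all 12 libraries (0.558), while the estimate stayed between 0.49 and 0.76 when any 1 library was left out.

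Bax encodes the pore-forming protein that permeabilises mitochondria in apoptosis. It was at 9.11, 11.88 and 9.42 TPM in vehicle libraries, against 10.79, 17.16 and 15.07 TPM with CCl4, so CCl4 library 1 overlapped vehicle. The change of 0.45 ± 0.26 was not called (limma adjusted p = 0.145), whereas it was called on the other 3 scales at 2.12, 1.01 and 1.17. Aen, an exonuclease that takes part in apoptotic DNA breakdown, was at 2.94, 4.11 and 4.24 TPM in vehicle libraries, against 4.01, 4.09 and 6.67 TPM with CCl4. The groups overlapped, with a change of 0.30 ± 0.23 (limma adjusted p = 0.279) that was likewise called on the other scales at 1.88, 0.79 and 0.71.

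Phlda3 and Eda2r were almost silent in vehicle liver. Phlda3, whose PH-domain protein restrains AKT signalling, was listed at 0, 0.04 and 0.08 TPM in vehicle libraries, against 0.82, 0.84 and 1.19 TPM with CCl4. Eda2r, a TNF-family receptor for the A2 form of ectodysplasin, was at 0.06, 0.07 and 0.06 TPM in vehicle libraries, against 0.71, 0.62 and 0.81 TPM with CCl4. Both were apart in all libraries (exact permutation p = 0.1 for each, the smallest that 3 against 3 allow, two-sided). That p does not measure the spread within a group, which was small beside the gap. Differences on the log2(TPM + 1) scale were 0.90 and 0.69, which understates such low genes. Both missed the filter on low TPM. Without that filter limma called them higher (adjusted p = 0.0103 and 0.00978), where 2007 of 24989 genes were called higher and 4527 lower. Near 0 with vehicle, they could not have been called lower in that fit, so these calls are not support. Without mitochondrial genes in the total they stood at 3.73 to 4.58 and 2.54 to 3.97 TPM with CCl4. With depth unknown, the number of reads behind hundredths of a TPM is unknown too. The ligand gene Eda was at 0.21 to 0.23 TPM with vehicle and 0.05 to 0.13 TPM with CCl4.

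Gdf15 and Trp53inp1 differed several-fold between livers of 1 group and were not called. Gdf15 encodes a secreted stress cytokine of the TGF-beta superfamily. It was at 62.05, 13.79 and 42.03 TPM in vehicle libraries, against 12.58, 38.95 and 56.65 TPM with CCl4. Trp53inp1, a nuclear and autophagy-related stress protein that promotes p53 activity, was at 71.10, 11.08 and 40.73 TPM in vehicle libraries, against 26.93, 18.33 and 44.27 TPM with CCl4. Both were lowest among vehicle livers in library 2, by at least 3-fold, and Gdf15 was also lowest in CCl4 library 1. The changes of -0.12 ± 0.58 and -0.19 ± 0.56 were not called (limma adjusted p = 0.864 and 0.774). Without vehicle library 2 they were -0.73 and -0.92 (limma adjusted p = 0.256 and 0.103), and on the other 3 scales all estimates were positive, with Gdf15 called only without mitochondrial genes in the total.

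Other genes were also low in vehicle library 2. There, 36 of 5739 genes (0.627%) with a mean of at least 5 TPM in vehicle liver were 3-fold or more below both other vehicle libraries, against 6 and 9 genes for libraries 1 and 3. Among the CCl4 livers the like counts were 32, 13 and 25 of 4578 genes (0.699%, 0.284% and 0.546%) for libraries 1, 2 and 3. Such a share is thus not particular to vehicle library 2. Besides Gdf15 and Trp53inp1 its 36 genes included 5 genes of the wider lists, and 15 others were unnamed or predicted genes or a small nucleolar RNA. The 5 were the antiproliferative Btg2, the kinase gene Plk3, the growth-arrest gene Gadd45a, the mTOR inhibitor Ddit4 and the transcription factor Atf3. Atf3 was at 104.78, 0.61 and 62.32 TPM in vehicle libraries 1, 2 and 3, and Gadd45a at 32.96, 1.47 and 20.48 TPM. Cdkn1a, Mdm2, Bax, Ccng1 and Aen differed by at most 1.44-fold across the same 3 libraries. The estimates for Gdf15 and Trp53inp1 were 0.32 and 0.37 without vehicle library 1 and -0.73 and -0.92 without library 2; what sets library 2 apart was not tested.

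**Figure D3:**
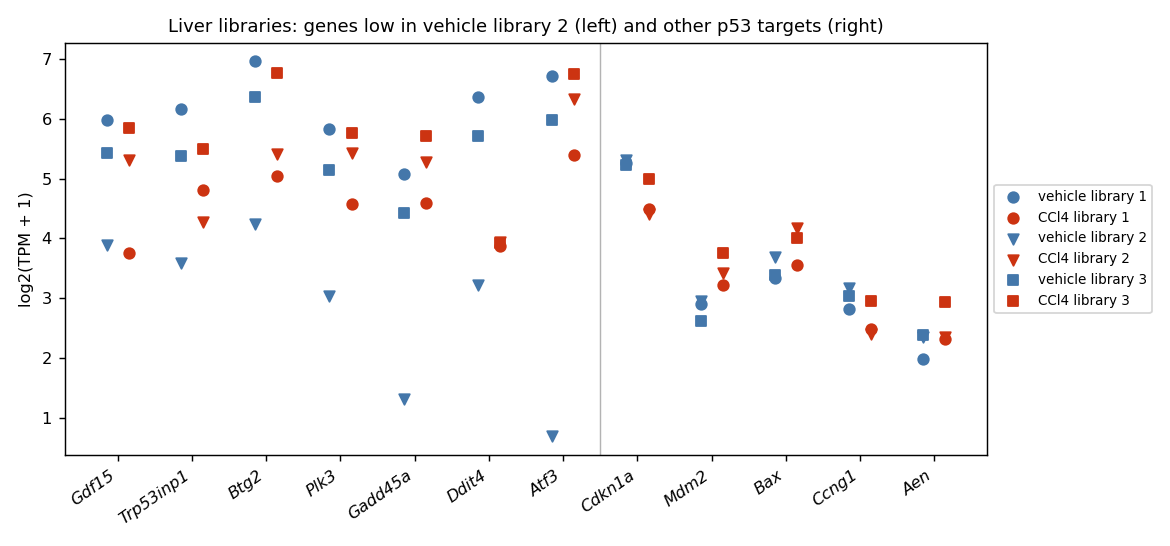
Log2(TPM + 1) of 7 genes that were at least 3-fold lower in vehicle liver library 2 than in libraries 1 and 3 (left of the line) and of 5 p53 targets that were not (right), with blue for vehicle, red for CCl4 and shapes for the library number. The blue triangle of library 2 lies far below the other blue symbols on the left, down to 0.61 TPM for Atf3, and among them on the right.

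Zmat3, a zinc finger RNA-binding protein that acts on splicing and mRNA stability, was at 0.29, 0.63 and 0.35 TPM in vehicle libraries, against 0.60, 0.57 and 0.94 TPM with CCl4. The groups overlapped (difference 0.26, exact permutation p = 0.3, n = 3 per group). Of the 4 scales it was called higher only on that without mitochondrial genes in the total, at 1.38 ± 0.21. There it passed the filter only through the CCl4 livers.

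Upstream of the targets, Trp53 was at 6.11, 6.96 and 6.92 TPM in vehicle libraries, against 5.17, 5.97 and 6.89 TPM with CCl4, which overlapped and was not called (-0.13 ± 0.21, limma adjusted p = 0.586). On the other 3 scales its direction turned and it was called higher, at 1.46, 0.40 and 0.40. Mdm4, the second inhibitor of p53, was at 2.93 to 5.28 TPM and 3.41 to 5.09 TPM, also not called (0.22, limma adjusted p = 0.440) but called higher on the other 3 scales, at 1.79, 0.71 and 0.61. Of 19 regulators listed, 12 were tested, of which 1 rose and 3 fell, beside 10.3% and 51.1% of all genes. The rise was Chek2, a checkpoint kinase, from 0.683 ± 0.272 to 1.31 ± 0.211 TPM (SD, n = 3), at 0.47; every vehicle value was under 1 TPM, so it was tested only through the group where it was high and could not have been called lower. The falls were the ubiquitin ligase Cop1 by 1.09 on the log2 scale, the acetyltransferase Kat5 by 0.76 and the coactivator Ep300 by 0.57. These 3 falls were present on the deposited scale only, and Chek2 was not called on 1 of the 4 scales.

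Among 36 other known p53 targets, 24 were tested, of which 3 rose and 12 fell. These shares were near those of all genes, 10.3% higher and 51.1% lower, and are no result about the list. The median of the 24 tested was -0.61 as deposited, beside -0.59 for all genes tested. Over all 36, of which 12 were under the filter, it was -0.073, which has no like value over all genes. The 3 rises, of the centrosome-associated gene Ckap2 by 2.41, the polo-like kinase Plk2 by 2.11 and the phosphomannomutase Pmm1 by 0.84, were called on all 4 scales. Ckap2 was under 1 TPM in every vehicle liver and passed the filter only through the CCl4 livers. Of the 12 falls, only those of the xylulose reductase Dcxr, by 2.35, and the thiamine transporter Slc19a2, by 2.01, were. The death genes Bbc3, which encodes PUMA, and Fas fell by 0.62 and 0.72 (limma adjusted p = 0.0221 and 0.0180) on the deposited scale and were called higher, at 0.72 and 0.88, without mitochondrial genes. Of 15 BCL2 family genes, among them Bbc3, 11 were tested: Bcl2a1b and Bcl2l11 rose by 2.82 and 0.61 on all 4 scales, and 4 fell, among them the linker Bid by 0.97 and the survival gene Bcl2l1 by 0.71, none of them on all scales. Bcl2a1b belongs to a set of near-identical paralogs, so its single value is uncertain, and it too was under 1 TPM in every vehicle liver. Bak1, the other pore-forming member beside Bax, was at 4.16 to 4.73 TPM with vehicle and 2.76 to 5.40 TPM with CCl4, and was called higher only without mitochondrial genes in the total.

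Some cyclins, the kinase Cdk1 and the proliferation genes Mki67 and Top2a were called higher. Of 16 listed genes of p21 partners and cycling cells, 13 were tested, and 7 rose and 0 fell, beside 10.3% and 51.1% of all genes. These 7 were called on the other scales too, where 67.8%, 18.4% and 17.1% of all genes were higher. Of the 7, 6 were under 1 TPM in every vehicle liver (all but Ccnd1), so they were tested only through the group where they were high, and the count is not support for the list. On the deposited scale Cdk2, Cdk4, Cdk6 and Ccnd3, also partners of p21, had estimates of -0.30, 0.057, -0.098 and -0.058 and were not called. Rescaled without mitochondrial genes and near copies, all 16 listed genes were tested and called higher, these among them. Under median-ratio scaling and quantile normalization 8 and 9 of 13 tested were called higher. These counts too include genes tested only through the CCl4 livers. The kinase Cdk1 rose by 3.55, from 0.41 ± 0.0458 to 17.7 ± 11.2 TPM, cyclin D1 (Ccnd1) by 2.78, topoisomerase Top2a by 2.53 and cyclin A2 (Ccna2) by 2.03. The median of all 16 was 0.39. Of 12 genes of the integrated stress response, which shares Gdf15 as a target, 11 were tested, and 6 rose and 0 fell, again on all 4 scales, beside the same shares of all genes. Ddit3, which encodes CHOP, rose by 2.28, from 6.10 ± 1.38 to 33.6 ± 6.88 TPM. The serine synthesis enzyme Psat1 rose by 1.93, the asparagine synthetase Asns by 1.38 and the hormone Fgf21 by 1.32, all 3 from under 1 TPM in every vehicle liver and thus tested only through the CCl4 livers. The other 3 were Ddit3, Trib3 and Ppp1r15a, while Atf4 itself was not called (0.029, limma adjusted p = 0.942), though it was on 2 of the other 3 scales. Gfral, the receptor of GDF15, was listed at 0 in all 12 libraries.

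In skin CX3CR1+ cells, 0 of the 9 genes tested were called (Zmat3 missed the filter), and limma called 0% of 13767 genes. On data simulated with the spread of the skin libraries the same test recovered none of the changes put in, so a count of 0 does not show that the genes did not differ. At an unadjusted p under 0.05 limma had 1 of the 9, Cdkn1a, beside 0.821% of all genes higher and 1.27% lower. Cdkn1a was at 1757, 843 and 832 TPM in vehicle libraries, against 2841, 4575 and 1953 TPM after CCl4. All CCl4 values lay above all vehicle values, by 2.73-fold in mean TPM, with a change of 1.45 ± 0.54 (log2 ± SE, n = 3 per group, limma adjusted p = 1.00, exact permutation p = 0.1). Aen was also without overlap, at 15.51, 15.81 and 8.67 TPM against 16.62, 24.41 and 57.54 TPM (1.10 ± 0.68, limma adjusted p = 1.00). Thus 2 of the 10 genes lay wholly above vehicle, where 2.56% of all genes tested did, and 0 wholly below, where 2.72% did. The estimate for Cdkn1a was 1.75 without CCl4 library 3, the one with few macrophage markers, 1.27 without vehicle library 3, and 1.83 without both libraries numbered 1, never called.

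The other 8 genes overlapped between the skin groups. Phlda3 was at 8.06, 18.74 and 35.30 TPM in vehicle libraries, against 18.80, 24.88 and 124.48 TPM with CCl4, and Bax at 212.30, 179.33 and 384.40 TPM against 252.78, 210.41 and 762.17 TPM. In both, library 3 was the highest of its group, and without CCl4 library 3 the changes were 0.28 and -0.085 in place of 1.10 and 0.49. Gdf15 ranged from 61.51 to 441.00 TPM with vehicle and from 16.98 to 625.27 TPM with CCl4, a 36.8-fold span among the CCl4 libraries. Mdm2 was at 77.10, 262.66 and 17.13 TPM in vehicle libraries, against 103.91, 72.82 and 57.05 TPM with CCl4, lowest in vehicle library 3. Eda2r was at 1.73, 3.41 and 0.01 TPM against 0.92, 12.50 and 5.23 TPM. Ccng1, Trp53inp1 and Zmat3 had changes of -0.10, -0.18 and -0.16 with overlapping groups. Trp53 was at 46.83, 63.06 and 42.63 TPM in vehicle libraries, against 47.58, 139.95 and 128.12 TPM with CCl4, which overlapped (0.91 ± 0.62, limma adjusted p = 1.00).

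The wider lists gave no call in skin either. Among 34 other p53 targets tested, the lowest p values belonged to Gadd45a (1.62 ± 0.65) and Perp, a desmosomal gene of epithelia (1.05 ± 0.57). Top2a and Ccna2 had estimates of -2.06 and -1.20 among the p21 partners, and the death gene Bik and the survival gene Bcl2l2 had 2.14 and 0.94 in the BCL2 family. Among regulators the lowest p values were those of the kinase Atr (-0.83) and Trp53, and in the integrated stress response those of Chac1 (1.30) and Asns (1.44). Edaradd, the adaptor of the ectodysplasin receptor, was the one ligand or receptor partner tested (-0.57). The limma adjusted p of each of these genes was 1.00.

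On the deposited scale with vehicle, 9 of the 10 genes had a higher mean TPM in skin cells than in liver, and for 7 of them no library overlapped. The share of all genes that did so was not computed, so these counts are no result about the list. Genes other than mitochondrial ones and near copies shared 95.3% to 97.7% of the total in skin and 71.6% to 74.3% in liver. Cdkn1a averaged 1144 ± 531 TPM in skin against 37.6 ± 1.04 TPM in liver (SD, n = 3 per group), a ratio of 30.4. Bax had a ratio of 25.5 and Mdm2 of 19.3. Trp53inp1 was the exception at 17.1 ± 14.1 TPM in skin and 41.0 ± 30.0 TPM in liver, with overlap. Within vehicle liver, the order on the TPM scale, which is per length, ran from Trp53inp1, Gdf15 and Cdkn1a (41.0, 39.3 and 37.6 TPM, not distinct beyond their spread) through Bax, Ccng1, Mdm2 and Aen (10.1 to 3.76 TPM) to Zmat3, Eda2r and Phlda3 (all under 1 TPM). In vehicle skin it ran from Cdkn1a through Gdf15, Bax and Mdm2 (307.9, 258.7 and 119.0 TPM, with SDs from 110.1 to 213.6) to Zmat3 at 0.933 ± 0.278 TPM. Assay, strain and cell preparation differ between the materials, so these ratios describe the libraries and cannot be told apart from those differences.

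Whether the CCl4 effect differed between liver and skin was tested in 1 limma model over all 12 libraries for the 7 genes that passed the filter in both. None of the 7 was called (1 had an unadjusted p under 0.05), where 0.151% of 9255 genes were called above 0 and 0.0648% below. Cdkn1a came nearest: its change was -0.64 in liver and 1.45 in skin, a difference of -2.09 ± 0.57 (liver minus skin, limma adjusted p = 0.0962, and 0.0553 to 0.617 over the alternatives). It was -0.41 ± 0.53 when TPM was rescaled without mitochondrial genes. The other 6 differences lay between -0.80 and 0.91. Profiles of log2(TPM + 1) over the 12 libraries were also compared, each gene centred within each tissue, which removes the level difference between tissues. Nearest to Cdkn1a were Snu13, Rdh10, Gm5831, Bcl2l2 and Fbl, at Euclidean distances of 0.95 to 1.23 among 9255 genes. All 5 had a lower mean with CCl4 in liver and a higher one in skin, which follows from how they were picked. Gm5831 is a predicted gene, whose reads may be shared with a parent gene.

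**Figure D4:**
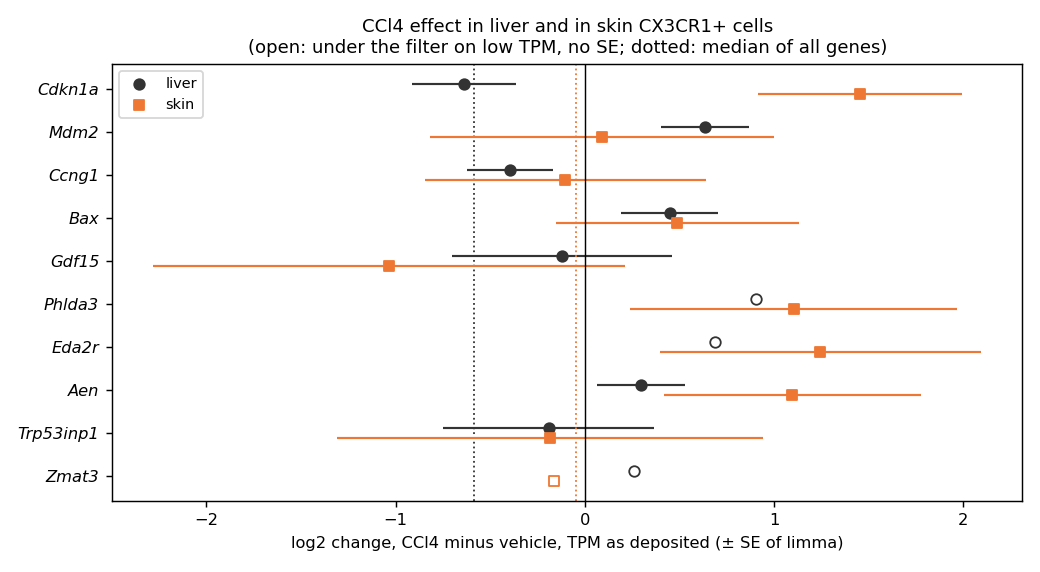
Log2 change with CCl4 in liver (black circles) and skin CX3CR1+ cells (orange squares) on the deposited TPM scale, with limma's SE as bars and open symbols for genes under the filter on low TPM. Skin bars are wider than liver bars for every gene tested in both, and Cdkn1a is the gene whose symbols lie farthest apart, at -0.64 and 1.45.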

How the data were processed

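RNA levels of 12 libraries were taken from 1 deposited table of TPM for 57180 genes. The authors had processed reads with fastp, HISAT2, StringTie and RSEM with GRCm39 as build, per the submitters' processing notes, without versions or roles. TPM holds no read depth, so depth is unknown and no counting interval can be given; zeros may be failed estimates. Symbols were matched for 51884 identifiers. Values were analysed as log2(TPM + 1) with limma 3.58.1 in R 4.3.3 (lmFit, eBayes with trend, two-sided), separately in liver and skin, over genes with at least 1 TPM in at least 3 of the 6 libraries, with Benjamini-Hochberg adjustment over all genes tested and calls at an adjusted p under 0.05. The code was tested on simulated data, where it recovered most changes in liver and none in skin. In that simulation 9.41% of the liver calls were false, more than an adjusted p of 0.05 allows for. Genes under the filter were compared by a two-sided exact permutation test. Near copies of mitochondrial genes were pseudogenes matching at least 95% over at least 80% of their transcript (BLAST 2.17.0, GENCODE M21). The design text calls the samples biological replicates. Libraries are numbered as in the sample titles, and same-numbered libraries were not treated as pairs.

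Members and lists were chosen with earlier results of these data known. Named from the lists were, in each tissue, the called genes with the 4 lowest p values, or the 2 lowest where none was called, and Trp53, Mdm4, Eda, Gfral, Atf4, Ddit3 and Bak1; other genes were named after their values were seen. Alternatives were pseudocounts of 0.1 and 5, no filter or one at 5 TPM, 3 other scalings, robust eBayes, the replicate number as a block, a joint model of all 12 libraries, and leaving out libraries.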

Additional observations from a re-analysis of the deposited data

Results flagged for a closer look

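The CCl4 effect on 2 genes of the list of p21 partners and cycling cells differed between liver and skin in the limma model over all 12 libraries. Top2a was at 0.10, 0.32 and 0.10 TPM in vehicle liver and at 4.71, 4.98 and 7.94 TPM in CCl4 liver, whereas in skin it was at 7.69, 8.67 and 5.59 TPM in vehicle libraries and 1.82, 1.54 and 0.07 TPM in CCl4 libraries. The difference of effects, liver minus skin, was 4.58 ± 0.56 on the log2 scale (limma adjusted p = 0.00932), and the gene was called in the 16 alternatives that tested it (limma adjusted p 0.000274 to 0.0443). Both genes were under 1 TPM in every vehicle liver and passed the liver filter only through the CCl4 livers. They could therefore not be tested without CCl4 liver library 1, 2 or 3, nor with a filter at 5 TPM, so these counts say nothing of the libraries that carry the liver change. Ccna2 differed by 3.24 ± 0.47 (limma adjusted p = 0.0163), from 0.06 to 0.43 TPM up to 2.99 to 6.65 TPM in liver and from 2.55 to 3.06 TPM down to 0.27 to 1.28 TPM in skin. That call held in 12 of 16 alternatives (limma adjusted p 0.000432 to 0.0889) and was lost without liver vehicle library 1, 2 or 3 or skin vehicle library 1, with differences of 3.27, 3.33, 3.11 and 3.30. Assay and strain differ between the materials, and the skin change of either gene was not called.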

How the results depend on the processing

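With 1 gene called higher and 0 lower in liver, the count higher was 2 without a filter on low TPM (Phlda3 and Eda2r, with Mdm2 lost), 9 rescaled without mitochondrial genes and near copies, 4 under median-ratio scaling, 3 under quantile normalization, 0 in 1 fit over all 12 libraries, and 0 to 1 when 1 library was left out. Of the 9, Phlda3, Eda2r and Zmat3 passed the filter only through the CCl4 livers, as did Phlda3 of the 4. Without a filter, Phlda3 and Eda2r were near 0 with vehicle and could not have been called lower. The count lower was 1 with a pseudocount of 5 (Cdkn1a) and 0 to 2 when 1 library was left out. The cause was not tested, except that leaving out a library leaves fewer samples. In skin and for the difference between tissues, the count was 0 under each alternative run, which for skin does not show that the genes did not differ. The replicate block gave 1 higher and 0 lower in liver and changed no call of the 10 genes; deviations of libraries with the same replicate number in their titles correlated at -0.038, 0.080 and 0.068 in liver and at 0.59, 0.092 and 0.35 in skin, so the numbers were not taken as pairs, and not every library correlated best with its own number. The names of 4 of the 12 libraries carry another number than their titles; the skin vehicle and CCl4 libraries that share the name number 4 correlated at -0.18. Liver estimates turned sign rescaled without mitochondrial genes for Cdkn1a (1.03), Ccng1 (1.16), Gdf15 (1.56) and Trp53inp1 (1.49), under median-ratio scaling for Ccng1 (0.13), Gdf15 (0.47) and Trp53inp1 (0.40), and under quantile normalization for Cdkn1a (0.35), Ccng1 (0.11), Gdf15 (0.88) and Trp53inp1 (0.84). In skin Mdm2 turned under quantile normalization (-0.053) and, without both libraries numbered 1, Mdm2 (-0.079) and Ccng1 (0.043) turned. Leaving out 1 library moved Gdf15 between -0.73 and 0.49 and Trp53inp1 between -0.92 and 0.37 in liver. In skin it moved Mdm2 between -0.91 and 1.03, Ccng1 between -0.65 and 0.40, Bax between -0.085 and 0.84, Gdf15 between -2.28 and 0.28, Trp53inp1 between -1.26 and 0.72 and Zmat3 between -0.26 and 0.026. Over all genes in liver, 1073 higher and 5304 lower became 8525 and 450 without mitochondrial genes, 1901 and 2677 under median-ratio scaling, 1778 and 2574 under quantile normalization, 2007 and 4527 without a filter, 321 and 3763 with a filter at 5 TPM, and 334 and 1402 in the fit over all 12 libraries. Leaving out 1 library gave 444 to 995 higher and 3645 to 6513 lower. The difference between tissues was called for 20 genes, and for 2 to 765 under the alternatives. Read depth is unknown, so the precision of values under 1 TPM cannot be given.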

Other observations

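Among p53 targets under the filter on low TPM, several others lay near 0 in vehicle liver and apart from it after CCl4; they were chosen after their values were seen. Pmaip1, which encodes the death protein NOXA, was at 0.12, 0.04 and 0.06 TPM in vehicle libraries, against 1.54, 2.39 and 0.80 TPM with CCl4. Psrc1, a spindle-associated gene, was at 0, 0 and 0.12 TPM in vehicle libraries, against 0.43, 1.00 and 1.22 TPM with CCl4. Sfn, which encodes the cell cycle regulator 14-3-3 sigma, was at 0.17, 0.03 and 0.13 TPM against 0.80, 1.14 and 0.62 TPM, and the death receptor gene Tnfrsf10b at 0.18, 0.11 and 0.06 TPM against 0.46, 0.47 and 0.54 TPM. Each had an exact permutation p = 0.1 (n = 3 per group), the smallest possible. Of the 12 listed targets under the filter in liver, Apaf1 and Abcb1a also lay apart and higher with CCl4. Pidd1, Rrm2b, Polk, Ak1, Tnfrsf18 and Dyrk3 overlapped between the groups. The share of all genes under the filter that lay apart was not computed, so these genes are no result about the list. In skin, Pmaip1, Psrc1 and Tnfrsf10b overlapped between the groups, with Pmaip1 at a mean of 125.3 TPM in vehicle and 37.6 TPM in CCl4 libraries. Sfn was without overlap there, at 222.48, 296.79 and 109.14 TPM in vehicle libraries, against 525.97, 355.66 and 321.02 TPM with CCl4.

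Vehicle liver library 2 was also low in genes outside the p53 lists. The metallothioneins Mt1 and Mt2 were at 54.50 and 46.22 TPM there, against 703.97 and 680.65 TPM in library 1 and 471.41 and 430.12 TPM in library 3. Igfbp1 was at 128.47 TPM against 733.10 and 486.10 TPM, and Fosb at 0.18 TPM against 14.40 and 8.44 TPM.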
